A study of Homo sapiens with 10 samples.

Results

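The genes of the desmosome, the rivet-like junction that holds epithelial cells together, were followed in human A253 cells, an established line from a salivary gland squamous cell carcinoma. The 10 genes were chosen by name, as the desmogleins DSG1, DSG2 and DSG3, the desmocollins DSC1, DSC2 and DSC3, the plakophilins PKP1, PKP2 and PKP3, and desmoplakin (DSP), out of 58735 genes in the count table. RNA was sequenced from 3 groups of 2 libraries each. Control cells carried Cas9 with a guide that targets dTomato, a sequence that the human genome lacks. Cl1 and Cl10 are single clones with a heterozygous deletion (DUSP1-/+) of exon 2 of DUSP1, the gene of a phosphatase that switches off MAP kinases. All 3 groups came from cells transduced with Cas9 and selected with antibiotics. Since Cl1 and Cl10 are 1 clone each, a difference between a clone and the control cannot be told apart from a difference that the founder cell already had.

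In a desmosome, desmogleins and desmocollins of neighbouring cells bind each other outside the membrane. Inside, their tails bind plakoglobin and the plakophilins, these bind desmoplakin, and desmoplakin ties the plaque to keratin filaments. In squamous epithelia the members change with the layer. DSG3 and DSC3 are typical of basal layers, DSG1, DSC1 and PKP1 increase towards the surface, and DSG2 and PKP2 also occur in simple epithelia.

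Library totals ran from 47016495 to 70986593 counts. DUSP1, the targeted gene, had 12.9 and 11.05 CPM (counts scaled to the library total with TMM factors) in the control, 5.28 and 6.15 in Cl1 and 8.61 and 7.22 in Cl10, and these counts also hold the exons that were not deleted. All 7 markers of squamous and basal epithelium reached 1 CPM, with a summed level between 12599 and 14618 CPM in the 6 libraries, as did all 4 luminal or ductal markers, whose sum was lower in Cl10 (2227 and 2307 CPM) than in the control (3598 and 4092 CPM) and Cl1 (4067 and 4495 CPM). None of 4 salivary acinar markers reached 1 CPM, while 2 of 3 myoepithelial, 1 of 4 fibroblast and 1 of 3 leukocyte markers did, with the defining leukocyte marker PTPRC at 0.208 CPM or less and the fibroblast marker COL1A2 at 0.041 CPM or less. The fibroblast marker above that level was COL1A1 (17.95 to 31.7 CPM), with a summed fibroblast level of 18.6 to 18.7 CPM in Cl10 and 27.3 to 32.2 CPM in the other 4 libraries. The leukocyte marker was CD14 (6.09 to 13.5 CPM), with a summed leukocyte level of 6.16 to 6.95 CPM in the control, 10.3 to 13.8 in Cl1 and 8.65 to 9.86 in Cl10. The part of these markers in the results was not tested. In bulk RNA a gene read in fewer cells cannot be told apart from less RNA per cell. Nothing in the labels says that the 2 libraries of a group came from separate cultures, so p-values measure the spread between these libraries, which may be technical. The control libraries stood further apart than the libraries of a clone. Of the 8 desmosome genes with at least 5 CPM, 7 were higher in control replicate 1 than in replicate 2, with a median log2 difference of 0.33 and a largest one of 0.53 for DSP, against a median of -0.01 over all 11656 genes of that level. The corresponding medians of the 8 genes were -0.04 in Cl1 and -0.04 in Cl10. The difference between the controls moved with the exon length of genes, from -0.17 to 0.16 between the shortest and the longest of 4 length classes. The trend of the fold changes over exon length was also subtracted. This gave no new p and does not remove the difference between the control libraries. No desmosome gene then changed sign in any comparison. In Cl1, DSP moved from 0.65 to 0.60 and DSC2 from 0.91 to 0.87 on the log2 scale.

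The 6 cadherins lie side by side on chromosome 18 (hg38). The desmocollins are on the minus strand, with DSC3 at chr18:30989365-31042815, DSC2 at chr18:31058840-31102522 and DSC1 at chr18:31129236-31162856. The desmogleins follow on the plus strand, with DSG1 at chr18:31318160-31359246, DSG3 at chr18:31447741-31478702 and DSG2 at chr18:31498177-31549008. PKP1 is at chr1:201283452-201332993 (plus), PKP2 at chr12:32790745-32896798 (minus), PKP3 at chr11:392614-404908 (plus) and DSP at chr6:7541338-7586714 (plus). Promoters from RefSeq (GRCh38.p14) were found for 8 of the 10 genes, with 2 entries for DSC2. The 4 sequences below are those of the cadherin with the largest fold in Cl1 (DSC1), of the 2 abundant genes that rose most in Cl1 (DSC2 and PKP1), and of DSG2, which fell in Cl10. Capitals mark the E-box letters CACCTG or CAGGTG (the same site read on either strand), to which repressors such as ZEB1 and SNAI2 are known to bind. Each runs 5′ to 3′ on the strand of the gene, from 250 bases before the RefSeq start to the start of the gene in GENCODE release 44, 149 bases for DSC2 (chr18:31102523-31102671, minus), 250 for DSC1 (chr18:31162857-31163106, minus), 196 for PKP1 (chr1:201283256-201283451, plus) and 250 for DSG2 (chr18:31497927-31498176, plus).
DSC2: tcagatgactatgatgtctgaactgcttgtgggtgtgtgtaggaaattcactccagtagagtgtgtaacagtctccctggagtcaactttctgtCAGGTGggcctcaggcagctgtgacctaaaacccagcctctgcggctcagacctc
DSC1: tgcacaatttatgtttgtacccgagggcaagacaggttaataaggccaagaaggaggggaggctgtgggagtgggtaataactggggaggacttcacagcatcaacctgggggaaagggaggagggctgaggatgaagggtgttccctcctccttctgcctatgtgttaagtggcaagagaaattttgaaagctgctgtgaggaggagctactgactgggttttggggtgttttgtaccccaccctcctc
PKP1: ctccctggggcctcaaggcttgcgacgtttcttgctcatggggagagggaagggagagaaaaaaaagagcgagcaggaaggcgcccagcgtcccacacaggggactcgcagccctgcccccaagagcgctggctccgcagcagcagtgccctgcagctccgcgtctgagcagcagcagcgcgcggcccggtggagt
DSG2: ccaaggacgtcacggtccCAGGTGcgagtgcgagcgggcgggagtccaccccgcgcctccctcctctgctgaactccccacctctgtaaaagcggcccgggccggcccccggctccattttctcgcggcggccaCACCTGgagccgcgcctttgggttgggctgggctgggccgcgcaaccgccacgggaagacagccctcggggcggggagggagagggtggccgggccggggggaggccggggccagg
The E-box of DSC2 begins 156 bases before the RefSeq start and those of DSG2 begin 232 and 116 bases before it, while DSC1 and PKP1 have none in the 250 bases. Of the promoters not printed, that of DSP holds 2 E-boxes (178 and 85 bases before the start) and that of DSG1 holds 1 (245 bases), whereas DSC3, DSG3 and the inner start of DSC2 have none. Of all 35116 RefSeq promoters, 17.5% hold such an E-box in the same 250 bases. The AP-1 letters TGACTCA or TGAGTCA (4.20% of all promoters) and the grainyhead-like letters AACCGGTT (0.117%) were in none of the 9 promoter entries. The KLF letters CACCC or GGGTG (54.7% of all promoters) were in each of the 9 entries. The SOX letters AACAAT or ATTGTT (8.98%) were only in that of the inner start of DSC2. These matches describe letters only.

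Desmosome transcripts were abundant in all groups, with the exception of the 2 cadherins of the upper layers. In the control, DSP had the highest mean (474 ± 122 CPM, SD, n = 2), followed by DSG2 (421 ± 65.1 CPM, SD, n = 2) and DSG3 (255 ± 58.5 CPM, SD, n = 2), whereas DSG1 stayed at 3.88 ± 0.44 CPM (SD, n = 2) and DSC1 at 7 and 1 counts. Levels of different genes were compared per kilobase of exon. On that scale PKP3 came first in every group (54.6 ± 1.61 CPM per kilobase in the control, 71.4 ± 4.69 in Cl1 and 62.4 ± 0.65 in Cl10, SD, n = 2). In the control, DSG3, DSG2, DSP, PKP1 and DSC3 followed with means from 45.7 down to 27.5 CPM per kilobase, and the libraries of each gene overlapped those of the next in this order. PKP2 (4.74) and DSC2 (3.74) lay far below, and DSG1 (0.525) and DSC1 (0.0142) were last. In Cl1 the order was PKP3, PKP1, DSP, DSG2 and DSG3, of which only the last 2 overlapped, and DSC2 (7.03) passed PKP2 (3.39). In Cl10 the order was PKP3, DSG3, DSP, DSG2, DSC3 and PKP1, with no overlap between neighbours. These orders depend on the exon length used for each gene.

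**Figure D1:**
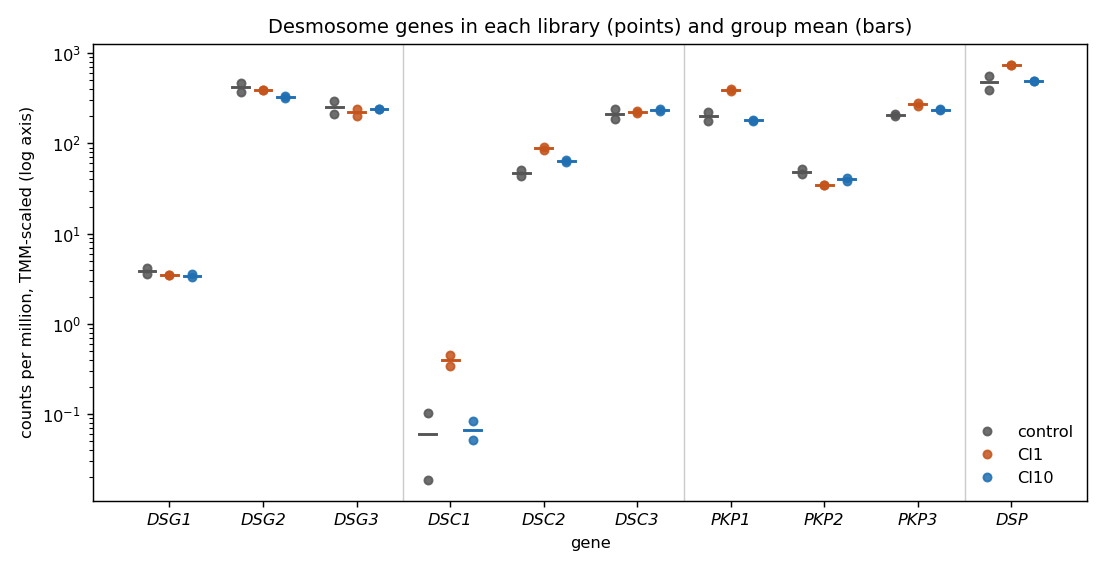
CPM (log axis, TMM-scaled) of the 10 desmosome genes, with a point for each library and a bar for the mean of the 2 libraries of a group (grey, control; orange, Cl1; blue, Cl10). PKP1, DSC2 and DSP of Cl1 sit above the other groups, DSG1 and DSC1 lie lowest, and the 2 control points of DSP (560 and 388 CPM) are far apart.

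To see how the desmosome differed in the first clone, Cl1 was compared with the control. Most genes that passed the test were higher. DSC1 was 5.86-fold, PKP1 1.97-fold, DSC2 1.88-fold, DSP 1.57-fold and PKP3 1.31-fold the control level, whereas PKP2 fell by 28.4%. The 3 desmogleins and DSC3 did not pass the test. In counts, 5 of 10 genes were higher and 1 lower at an adjusted p under 0.05 (edgeR's quasi-likelihood test, Benjamini-Hochberg adjustment over 20153 genes), where 12.4% of all tested genes were higher and 12.8% lower. Only DSC1 also had an absolute log2 fold change above 1, a limit passed by 7.54% of all tested genes. DSC1 reached the test only through its counts in Cl1, the group where it is high, so its call is no support. With at least 10 counts required in every library, DSC1 was not tested and 4 genes were higher. The median log2 fold change of the 10 genes was 0.24, and that of all tested genes was -0.01. Without Cl1 replicate 1 the count of higher genes was 3, since DSP (adjusted p = 0.0640) and PKP3 (adjusted p = 0.344) no longer passed edgeR's test, and PKP2 did not pass without either Cl1 library.

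The second clone, Cl10, was compared with the same 2 control libraries, so the values of both clones share the deviations of these libraries. Here DSC2 alone was higher (1.38-fold), while DSG2 fell by 21.9% and PKP2 fell by 17.98%. Of 9 tested genes, 1 was higher and 2 lower, where 20.6% of all 19875 tested genes were higher and 21.8% lower, and none passed the fold limit that 13.4% of all tested genes passed. DSC1 was too low to be tested. The median log2 fold change of the 9 genes was -0.09. These counts changed with each library, and with 1 control library left the spread comes from the 2 Cl10 libraries alone. Without control replicate 1, 5 genes were higher and 2 lower, and without control replicate 2, 2 were higher and 5 lower, while all genes passing went from 8439 to 11888 and 11470. Without Cl10 replicate 1, 1 was higher and none lower, and without Cl10 replicate 2 none passed in either direction, while all genes passing went to 5263 and 5141. The mitochondrial share of counts was 2.74% and 2.72% in Cl10 and between 3.71% and 4.14% in the other 4 libraries, and its part in the results was not tested.

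The clones were then set against each other, which needs no control library. In Cl10, 6 of 10 genes were lower than in Cl1 (DSC1, PKP1, DSP, DSC2, DSG2 and PKP3) and PKP2 was higher. Over all 19818 tested genes 24.1% were lower and 24.9% higher. DSC1 and PKP1 also passed the fold limit, which 10.8% of all tested genes passed. Here too DSC1 reached the test only through its counts in Cl1. With at least 10 counts required in every library, 5 genes were lower. The median log2 fold change of the 10 genes was -0.22, and that of all tested genes was -0.00.

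**Figure D2:**
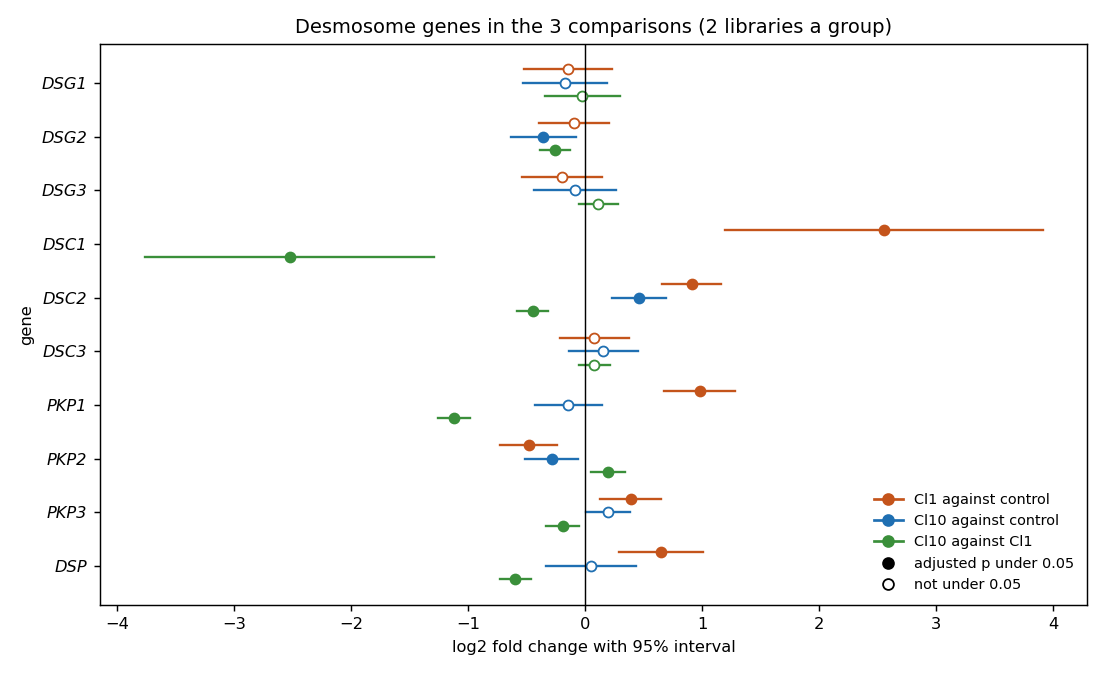
Log2 fold changes (points) with their 95% intervals (lines) from edgeR for the 10 genes in the 3 comparisons, filled where the adjusted p was under 0.05. PKP1 (0.98), DSC2 (0.91) and DSP (0.65) lie to the right of 0 in Cl1, PKP1 (-1.12) and DSP (-0.60) lie to the left of it in Cl10 against Cl1, and DSG1, DSG3 and DSC3 have open points in all comparisons.

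Among the desmogleins, DSG2, the member also found in simple epithelia, had 467 and 375 CPM in the control, 395 and 391 in Cl1 and 320 and 336 in Cl10. Both Cl10 libraries were below the other 4, while Cl1 lay between the 2 controls. Against the control, Cl10 had a log2 fold change of -0.36 (standard error, SE, 0.12, edgeR adjusted p = 0.0470) and Cl1 one of -0.10 (95% interval -0.40 to 0.20), and the difference between the clones was -0.26 (edgeR adjusted p = 0.00360). Both calls were lost without either Cl10 library, and the call against the control also with scaling by library size alone (adjusted p = 0.0553 from edgeR). DSG3, the desmoglein of basal layers and the antigen of pemphigus vulgaris, had 296 and 214 CPM in the control, 203 and 241 in Cl1 and 239 and 240 in Cl10. The groups overlapped. On the log2 scale the differences from the control were -0.20 in Cl1 (95% interval -0.54 to 0.14), -0.09 in Cl10 (-0.44 to 0.26) and 0.11 between the clones (-0.05 to 0.28). DSG1, the desmoglein of differentiated layers, stayed between 3.33 and 4.19 CPM in the 6 libraries, and differed from the control by -0.15 on the log2 scale in Cl1 (95% interval -0.52 to 0.23) and by -0.17 in Cl10 (-0.53 to 0.19). An antisense gene overlaps DSG1 (10 to 44 counts) and another overlaps DSG2 (9 to 22 counts), while DSG2 itself had between 16136 and 31767 counts.

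Per kilobase of exon, DSG2 and DSG3 made up nearly all desmoglein transcripts. DSG2 held 49.2% ± 1.87 (SD, n = 2) in the control, 50.8% ± 3.14 in Cl1 and 44.4% ± 0.77 in Cl10, and DSG3 held 50.3% ± 1.92, 48.6% ± 3.17 and 55.0% ± 0.73. DSG3 was above DSG2 in both Cl10 libraries, while in the control and in Cl1 the order differed between the libraries. With the longest transcript of each gene in place of all exons, DSG2 came first in every group (61.7% in the control, 63.2% in Cl1 and 57.0% in Cl10), so the order of the 2 desmogleins rests on the length used. DSG1 held 0.58% in the control, 0.58% in Cl1 and 0.60% in Cl10. The summed desmogleins had 768 and 592 CPM in the control, 601 and 635 in Cl1 and 562 and 579 in Cl10.

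Among the desmocollins, DSC2, the most widely expressed of the 3, had 50.3 and 43.3 CPM in the control, 85.5 and 90.4 in Cl1 and 62.9 and 65.7 in Cl10. No groups overlapped, and the order was control, Cl10, Cl1. Cl1 rose above the control by 0.91 on the log2 scale (SE 0.12, edgeR adjusted p = 0.000155) and Cl10 by 0.46 (SE 0.10, edgeR adjusted p = 0.00862), and Cl10 against Cl1 was -0.45 (SE 0.06, edgeR adjusted p = 5.52e-05). Leaving out any 1 library kept these values between 0.81 and 1.02 in Cl1 and between 0.35 and 0.57 in Cl10, where the call was lost without Cl10 replicate 2 (adjusted p = 0.0843). DSC3, the desmocollin of basal layers, had 238 and 186 CPM in the control, 218 and 229 in Cl1 and 230 and 240 in Cl10. The groups overlapped, with differences from the control of 0.08 (log2) in Cl1 (95% interval -0.22 to 0.38) and 0.16 in Cl10 (-0.14 to 0.45). DSC1, the desmocollin of the upper layers, was read at the edge of detection, with 7 and 1 counts in the control, 23 and 22 in Cl1 and 3 and 4 in Cl10. Both Cl1 libraries were above the other 4. DSC1 reached the test only in the comparisons that include Cl1, through its counts in Cl1, so its adjusted p is no support for a rise. The fit gave Cl1 a log2 fold change of 2.55 (SE 0.63, edgeR adjusted p = 0.00979). Without control replicate 1, which held most of the control counts, it was 4.23, and without control replicate 2 it was 1.91. As summed counts per sequencing depth, Cl1 was 5.58 times the control (95% counting interval 2.60 to 13.7), Cl10 was 1.00 times the control (0.309 to 3.16) and Cl10 was 0.180 times Cl1 (0.0683 to 0.401), intervals that cover counting error only.

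Within the desmocollins DSC3 dominated in each group, but the share of DSC2 differed. Per kilobase of exon, DSC2 held 12.02% ± 0.71 (SD, n = 2) in the control, 19.5% ± 0.03 in Cl1 and 14.4% ± 0.01 in Cl10, and DSC3 held 87.9% ± 0.67, 80.3% ± 0.07 and 85.6% ± 0.03. The libraries of the 3 groups did not overlap for either gene. With the longest transcript as the length, DSC2 held 11.97%, 19.4% and 14.3%. DSC1 held 0.042%, 0.25% and 0.044%.

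**Figure D3:**
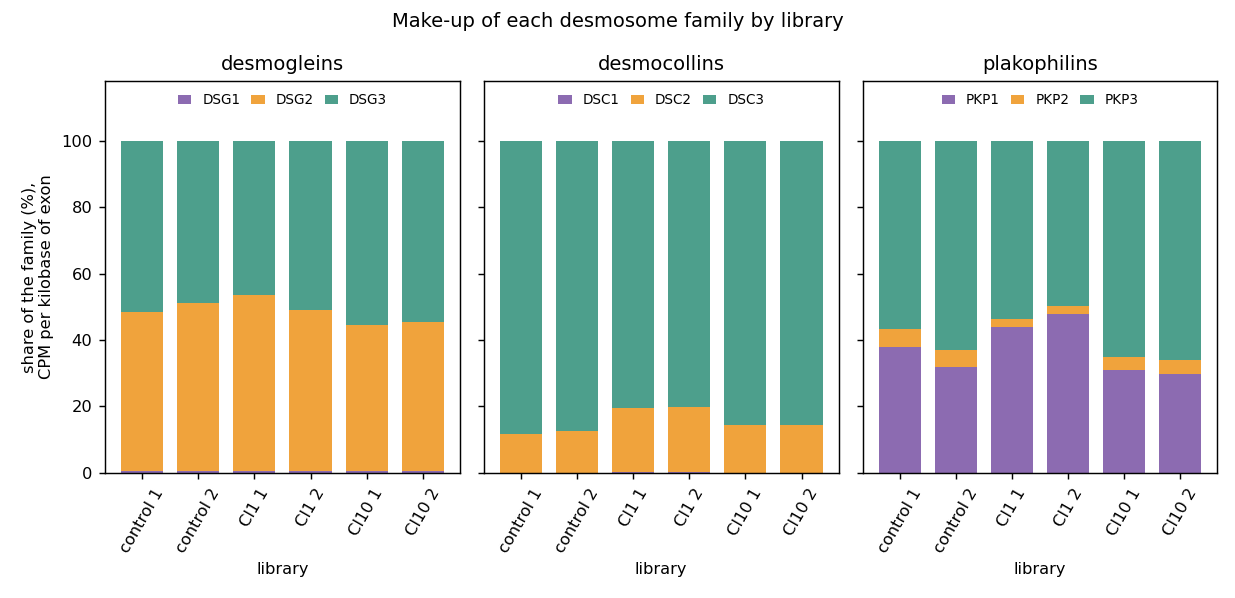
Share (%) of each gene in its family, from CPM per kilobase of exon, as stacked bars for each library. DSC2 widened from 12.02% of the desmocollins in the control to 19.5% in Cl1, PKP1 held 35.0% of the plakophilins in the control and 45.8% in Cl1, and DSG2 with DSG3 filled nearly all of the desmogleins.

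The 6 cadherin genes did not move as a block. The other tested genes within 10 megabases of DSG1 had median log2 fold changes near 0, of -0.08 over 66 genes in Cl1, -0.00 over 68 genes in Cl10 and 0.14 over 64 genes in Cl10 against Cl1. For the 50 tested genes nearest to DSC2 the medians were -0.05 (Cl1) and 0.01 (Cl10), so that its values relative to this stretch were 0.96 and 0.45. DSG4, a desmoglein of the hair follicle that lies between DSG1 and DSG3, is not one of the 10 genes and had 3 and 6 counts in the control, 5 and 15 in Cl1 and 84 and 65 in Cl10. Both Cl10 libraries were above the other 4. The rise in Cl10 was 4.19 on the log2 scale (SE 0.41, edgeR adjusted p = 0.000376), or 18.95 times the control as summed counts per depth (95% counting interval 9.72 to 42.3). DSG4 reached the test only in the comparisons that include Cl10, through its counts in Cl10, so this adjusted p is no support for a rise. The antisense gene DSG1-AS1, which overlaps DSG4, had 11 and 12 counts in the control, 10 and 13 in Cl1 and 44 and 29 in Cl10, and since the strand setting of the counting is not given, reads of the pair cannot be told apart.

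**Figure D4:**
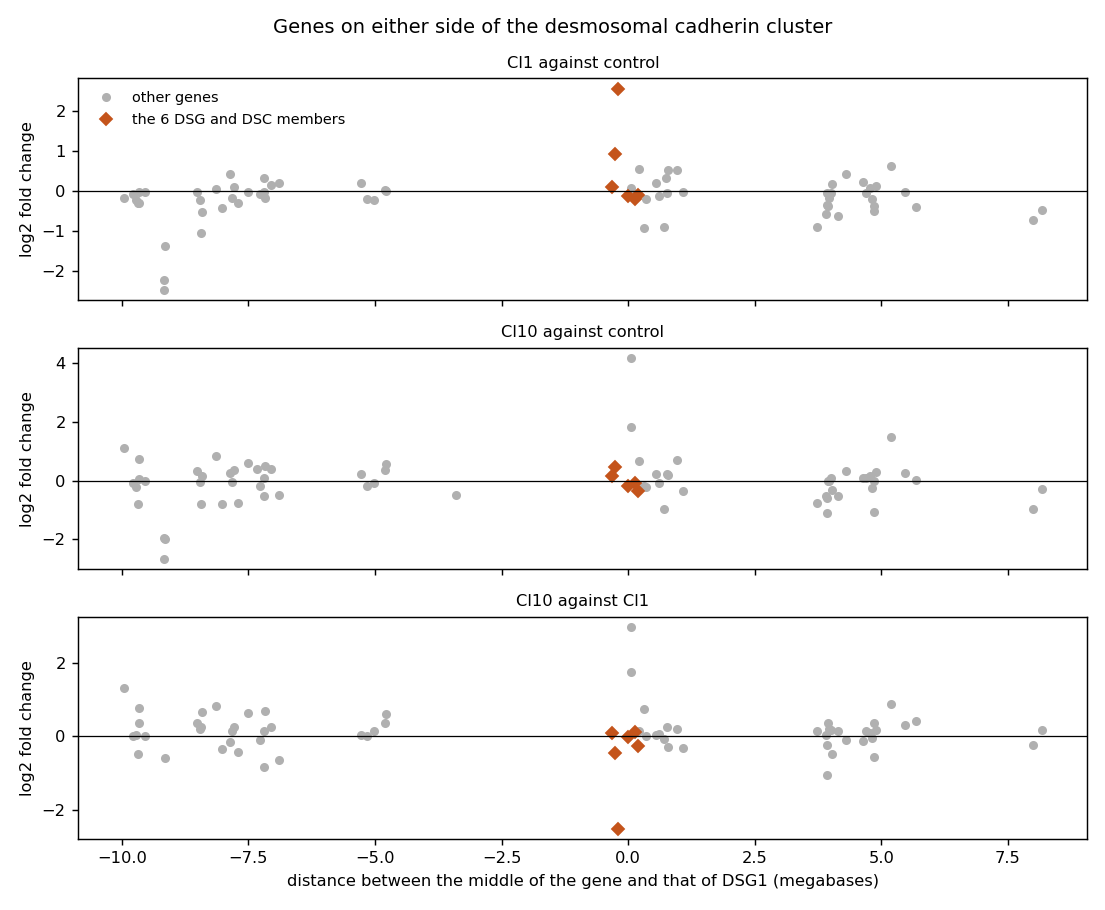
Log2 fold change of tested genes against the distance in megabases between the middle of the gene and that of DSG1, in the 3 comparisons, with the DSG and DSC members as orange diamonds and other genes, DSG4 among them, in grey. DSC1 (2.55) and DSC2 (0.91) stand above the genes around them in Cl1, and the grey point at 4.19 in Cl10 is DSG4.

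Among the plakophilins, PKP1, which strengthens adhesion in suprabasal cells, had 223 and 175 CPM in the control, 379 and 406 in Cl1 and 183 and 176 in Cl10. Both Cl1 libraries were above the other 4, and Cl10 overlapped the control. Cl1 was higher than the control by 0.98 on the log2 scale (SE 0.14, edgeR adjusted p = 0.000362), Cl10 differed from it by -0.14 (95% interval -0.43 to 0.14), and Cl10 against Cl1 was -1.12 (SE 0.06, edgeR adjusted p = 5.18e-08). Leaving out any 1 library kept the value in Cl1 between 0.82 and 1.16. Genes around PKP1 on chromosome 1 moved in the same direction. The 50 nearest tested genes, all within 2.52 megabases, had a median log2 difference of 0.39 (Cl1) and -0.39 (Cl10 against Cl1), and relative to these PKP1 was at 0.59 and -0.73. Their part in the result was not tested.

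PKP2, the plakophilin of simple epithelia and heart, had 51.9 and 45.6 CPM in the control, 34.8 and 34.9 in Cl1 and 38.3 and 41.4 in Cl10. All clone libraries were below both controls, and Cl1 was below Cl10. The log2 differences were -0.48 for Cl1 against the control (SE 0.11, edgeR adjusted p = 0.00755), -0.29 for Cl10 (SE 0.10, edgeR adjusted p = 0.0481) and 0.20 for Cl10 against Cl1 (SE 0.07, edgeR adjusted p = 0.0253). The calls against the control and between the clones were lost without either Cl10 library, the first also with DESeq2's size factors (adjusted p = 0.0504) and with DESeq2 (adjusted p = 0.0710), and the second with DESeq2 (adjusted p = 0.0722). The medians of the 50 genes nearest to PKP2 were 0.15 (Cl10) and 0.21 (Cl10 against Cl1), relative to which PKP2 was at -0.44 and -0.01. PKP3, which occurs in nearly all epithelia, had 203 and 211 CPM in the control, 284 and 258 in Cl1 and 235 and 238 in Cl10. The groups did not overlap, and the order was control, Cl10, Cl1. The log2 differences were 0.39 for Cl1 against the control (SE 0.12, edgeR adjusted p = 0.0323), 0.20 for Cl10 (95% interval 0.01 to 0.39, adjusted p = 0.0858) and -0.19 for Cl10 against Cl1 (adjusted p = 0.0246). The call in Cl1 was lost with scaling by library size alone (adjusted p = 0.0520 from edgeR) and without either Cl1 library, and the call between the clones with library size alone (adjusted p = 0.0855 from edgeR) and without either Cl10 library.

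The make-up of the plakophilins differed between the clones. Per kilobase of exon PKP1 held 35.0% ± 4.31 (SD, n = 2) of them in the control, 45.8% ± 2.77 in Cl1 and 30.4% ± 0.83 in Cl10. PKP2 held 5.18% ± 0.24, 2.46% ± 0.03 and 4.07% ± 0.22, and PKP3 held 59.8% ± 4.55, 51.8% ± 2.80 and 65.5% ± 0.61. For all 3 genes the Cl1 libraries were outside the range of the other 4. The summed plakophilins had 478 and 432 CPM in the control, 697 and 699 in Cl1 and 456 and 456 in Cl10.

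DSP, the plakin that anchors keratin filaments and a gene of 24 exons, had 560 and 388 CPM in the control, 744 and 739 in Cl1 and 488 and 491 in Cl10. Both Cl1 libraries were above all others, and both Cl10 libraries lay between the 2 controls. Cl1 exceeded the control by 0.65 on the log2 scale (SE 0.17, edgeR adjusted p = 0.0132), Cl10 differed from it by 0.05 (95% interval -0.33 to 0.44), and Cl10 against Cl1 was -0.60 (SE 0.06, edgeR adjusted p = 5.53e-06). The control libraries decided its size. With control replicate 1 left out the value was 0.93 in Cl1 and 0.33 in Cl10. With control replicate 2 left out it was 0.41 and -0.20, so that its sign in Cl10 turned with the control library used. In Cl10 against Cl1 it stayed between -0.61 and -0.59 with any 1 library left out. The 50 genes nearest to DSP had a median of -0.20 in Cl1.

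**Figure D5:**
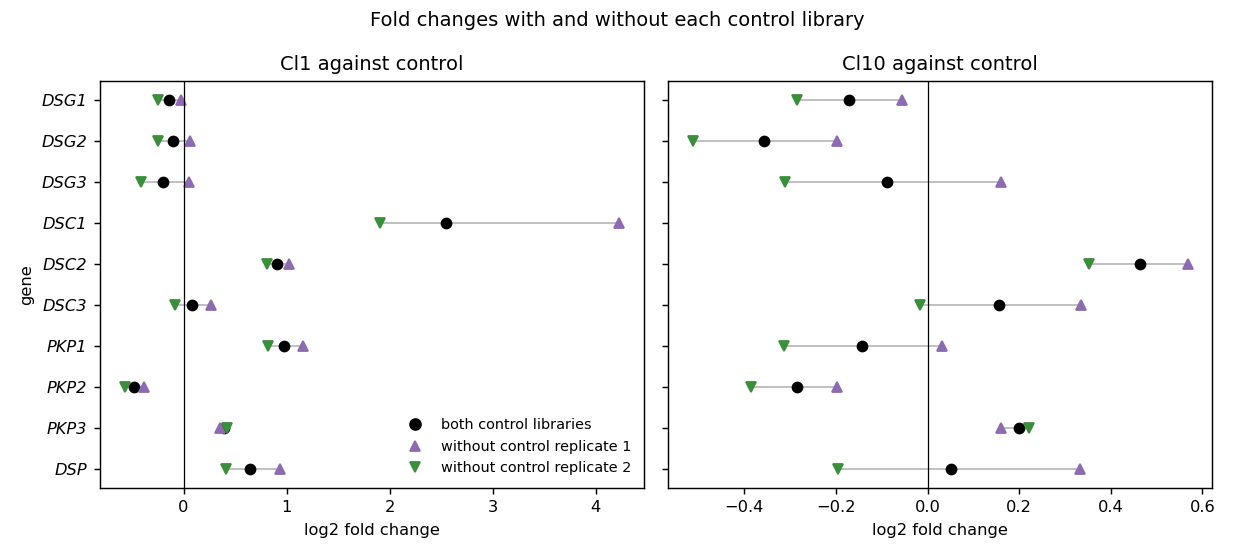
Log2 fold changes of 10 genes in Cl1 and of the 9 tested genes in Cl10 against both control libraries (black), without control replicate 1 (purple) and without control replicate 2 (green). In Cl1 the points of DSC2, PKP1 and DSP all stay right of 0, and in Cl10 those of DSP run from -0.20 to 0.33.

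Other genes of the junction were taken from lists. Of 7 other desmosome genes, 3 of 5 tested were higher and none lower in Cl1, and 3 of 6 were higher and none lower in Cl10 (12.4% and 20.6% of all tested genes were higher). The 3 in Cl10 include DSG4, which reached the test only through its counts in Cl10. JUP, which encodes plakoglobin and links the cadherins to the plaque, had 761 and 705 CPM in the control, 1020 and 948 in Cl1 and 857 and 837 in Cl10. The groups did not overlap, and on the log2 scale Cl1 was higher by 0.43 (edgeR adjusted p = 0.0349), with 0.21 for Cl10 (95% interval 0.01 to 0.42, adjusted p = 0.0906). The call of JUP in Cl1 was lost with the replicate number as a block (edgeR adjusted p = 0.132) and without Cl1 replicate 1 (edgeR adjusted p = 0.312) or replicate 2 (edgeR adjusted p = 0.170), and Cl10 passed when either control library was left out. PERP, a membrane protein needed for desmosome assembly in stratified epithelia, rose in both clones (by 0.58 and 0.49 on the log2 scale), but neither call held when either library of the clone was left out (edgeR adjusted p between 0.0737 and 0.109). EVPL, a plakin of the cornified envelope, rose in Cl1 (0.56, a call lost without Cl1 replicate 1, edgeR adjusted p = 0.0563) and was lower in Cl10 than in Cl1 (-0.69). Between the clones, however, its 50 nearest genes had a median of -0.60, so that EVPL was at -0.09 relative to them.

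Adherens junction genes, which build the neighbouring cadherin junction on actin, included 6 higher and none lower of 11 tested in Cl1, 4 higher and 3 lower in Cl10, and 1 higher and 8 lower in Cl10 against Cl1. Over all tested genes 12.4% were higher and 12.8% lower in Cl1, 20.6% and 21.8% in Cl10, and 24.9% and 24.1% in Cl10 against Cl1. CDH1, the gene of E-cadherin, had 371 and 323 CPM in the control, 641 and 599 in Cl1 and 432 and 451 in Cl10. The groups did not overlap, and the rise was 0.84 on the log2 scale for Cl1 (edgeR adjusted p = 0.000733) and 0.35 for Cl10 (edgeR adjusted p = 0.0262), where the 50 nearest genes had a median of 0.22 and the call was lost without Cl10 replicate 1 (edgeR adjusted p = 0.196) or replicate 2 (edgeR adjusted p = 0.301). NECTIN4, a nectin of epithelial junctions, moved in opposite directions, with 24.6 and 19.1 CPM in the control, 53.3 and 59.5 in Cl1 and 10.8 and 10.3 in Cl10. The log2 differences were 1.37 (Cl1), -1.05 (Cl10) and -2.42 (Cl10 against Cl1), each past the test. The 50 genes nearest to NECTIN4 had medians of 0.27, -0.07 and -0.32 in the same order, and their part in the result was not tested. NECTIN1, a nectin partner of the same junction, rose in Cl1 (0.73) and was lower in Cl10 than in Cl1 (-0.81). CTNND1, which encodes p120-catenin, rose in Cl1 (0.71) and Cl10 (0.40), but the 50 genes around it had medians of 0.46 and 0.60, and the call in Cl10 was lost without either Cl10 library (edgeR adjusted p = 0.160 and 0.197).

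Of 17 regulators of desmosomes, 6 were higher and 2 lower in Cl1, 6 higher and 4 lower in Cl10, and 5 higher and 7 lower in Cl10 against Cl1, beside all-gene shares of 12.4% and 12.8% (Cl1), 20.6% and 21.8% (Cl10), and 24.9% and 24.1%. ZEB1, a repressor of epithelial junction genes that binds E-boxes, had 159 and 147 counts in the control, 21 and 8 in Cl1 and 24 and 21 in Cl10. All clone libraries were below both controls. The log2 differences were -3.35 for Cl1 (SE 0.32, edgeR adjusted p = 1.37e-05) and -2.58 for Cl10 (SE 0.23, edgeR adjusted p = 0.000287). In Cl1, ZEB1 reached the test only through its counts in the control, where it is high, so that adjusted p is no support for a fall. ZEB1 is among the 2 lower genes in Cl1. SNAI2, another repressor that binds E-boxes, named after its values were seen, had 33.3 and 38.7 CPM in the control, 42.7 and 43.4 in Cl1 and 52.3 and 56.7 in Cl10. All clone libraries were above both controls. It rose in Cl10 by 0.61 on the log2 scale (SE 0.10, edgeR adjusted p = 0.00321) and was at 0.26 in Cl1 (95% interval 0.02 to 0.51, edgeR adjusted p = 0.110). Without control replicate 2 its value in Cl1 was 0.38. OVOL1, a factor of epidermal differentiation, rose in Cl1 (1.19) and in Cl10 (0.75, with a median of 0.39 for the 50 nearest genes). KLF5, also named after its values were seen, was lower in both clones. Its log2 differences were -0.75 for Cl1 (edgeR adjusted p = 0.00108), -0.30 for Cl10 (edgeR adjusted p = 0.0406) and 0.45 for Cl10 against Cl1 (edgeR adjusted p = 4.41e-05). The grainyhead-like factors, known activators of epithelial junction genes, included GRHL3, higher in Cl1 (0.78) and lower in Cl10 than in Cl1 (-1.08), and GRHL1, lower in Cl10 (-0.87) and lower in Cl10 than in Cl1 (-1.03). GRHL2, named after its values were seen, rose in both clones, with 69.0 and 61.6 CPM in the control, 100.2 and 107 in Cl1 and 119 and 120.2 in Cl10. Its log2 differences were 0.67 for Cl1 (edgeR adjusted p = 0.00122), 0.88 for Cl10 (edgeR adjusted p = 0.000441) and 0.21 for Cl10 against Cl1 (edgeR adjusted p = 0.0103), the last lost with 1 fit over 6 libraries and without either Cl10 library (edgeR adjusted p between 0.0890 and 0.129).

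Likeness to a member was measured as the root mean square difference of log2 CPM, each centred on its mean, over the 6 libraries and 11648 genes. By rule it was taken for the member with the widest gap between group means, DSC1 (2.31 on the log2 scale). The genes most like DSC1 were GPNMB (0.46), PDK1 (0.49) and ARHGAP8 (0.50). DSC1 had between 1 and 23 counts in a library, while the genes compared had a mean of at least 5 CPM. Its gap and pattern thus rest on few counts, and no shared pattern can be read from these names. For PKP1, added after its values were seen, they were ANK3 (0.035), KDM5B (0.068) and MYH14 (0.073). The search took no account of where genes lie. Genes around PKP1 moved in its direction, and whether any of those named lies in that stretch was not examined.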

How the data were processed

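Poly(A)-selected RNA of control, Cl1 and Cl10 cells was sequenced paired-end. HISAT2 (build hg38) and HTSeq gave the deposited raw counts of 58735 genes, which the authors did not normalize. The submitters' processing notes also list StringTie and DESeq. Gene annotation and strand setting are not given in the sources used here. Another 4 libraries, from SOX2 knockout cells and their control, were not used here. Each pair of groups was fitted on its own 4 libraries with edgeR 4.0.16 in R 4.3.3 (filterByExpr, TMM, glmQLFit, glmQLFTest, Benjamini-Hochberg over all tested genes, threshold 0.05). Standard errors (SE) come from the ratio of the unshrunk log2 fold change to the root of edgeR's F. DESeq2 1.42.0, other scalings and filters, 1 fit over 6 libraries and leaving out each library were alternatives; subtraction of a trend with exon length (spline with 5 degrees of freedom) and the likeness search for PKP1 were added after the data were seen. Exon lengths are from GENCODE release 44, in which 58207 genes were found. All 10 desmosome genes are named, with up to 4 passing genes of largest absolute log2 fold change per partner list. GRHL2, SNAI2 and KLF5 fall outside this rule. These genes and lists were chosen with earlier results of these data known. The fit was tested on data simulated with the means and spread of these libraries. Of 100 genes changed 1.5-fold it recovered 43 (Cl1), 49 (Cl10) and 68 (Cl10 against Cl1). Of 100 changed 4-fold it recovered 91, 90 and 90. A gene that did not pass may therefore still differ. Of the genes left unchanged it called 5 (Cl1), 6 (Cl10) and 16 (Cl10 against Cl1). The simulated libraries held no difference linked to exon length, unlike the control libraries.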

Additional observations from a re-analysis of the deposited data

Results flagged for a closer look

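For 7 of the 10 desmosome genes Cl10 differed from Cl1 in edgeR's test. DSC1 is among them, though it reached the test only through its counts in Cl1 and was not tested in Cl10 against the control. With 1 fit over 6 libraries the calls of DSG2, PKP2 and PKP3 were lost (edgeR adjusted p = 0.0870, 0.123 and 0.107). That of PKP2 was also lost with DESeq2 (adjusted p = 0.0722). The log2 fold change of Cl10 against Cl1 was -2.52 for DSC1, -1.12 for PKP1, -0.60 for DSP, -0.45 for DSC2, -0.26 for DSG2, -0.19 for PKP3 and 0.20 for PKP2. PKP1 and DSP were higher in Cl1 than in every other library, while both Cl10 libraries of DSP lay between the controls. Over all tested genes, 24.1% were lower and 24.9% higher in this comparison. Groups of 2 libraries were too small to look for outlying samples.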

How the results depend on the processing

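Each log2 fold change of a desmosome gene was recomputed under up to 13 alternatives. Of 316 values from alternatives with a test of their own, 270 kept direction and side of the threshold, 27 lost the call, 9 gained one and 10 changed sign. The subtraction of the exon length trend or of the 50 nearest genes gave no new p, and of its 58 values 2 changed sign. A library left alone in its group was assumed to vary like the others. At an absolute log2 fold change above 1, Cl1 kept 1 higher and 0 lower genes, Cl10 0 and 0, and Cl10 against Cl1 0 higher and 2 lower, and all genes passing numbered 1520, 2667 and 2131 in place of 5064, 8439 and 9706. Lower genes in Cl10 numbered 0 with library size alone, 1 with DESeq2's size factors and 1 with DESeq2, and higher genes in Cl10 against Cl1 numbered 0 with 1 fit over 6 libraries, which ended the calls of DSG2, PKP2 and PKP3, and 0 with DESeq2.

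With any 1 library left out, the counts ranged from 3 to 5 higher and 0 to 2 lower in Cl1, from 0 to 5 higher and 0 to 5 lower in Cl10, and from 0 to 3 higher and 4 to 6 lower in Cl10 against Cl1, and all genes passing ranged from 2718 to 7146, 5141 to 11888 and 7240 to 10692. With either control library left out, values in Cl1 ran from -0.25 to 0.067 (DSG2), -0.41 to 0.054 (DSG3) and -0.085 to 0.26 (DSC3), and in Cl10 from -0.31 to 0.16 (DSG3), -0.016 to 0.34 (DSC3), -0.31 to 0.032 (PKP1), -0.20 to 0.33 (DSP) and -0.23 to 0.085 (NECTIN1), the lower end without control replicate 2. At both ends DSG3 and DSP in Cl10 passed, in fits whose spread comes from the 2 Cl10 libraries alone, so these calls are no support. In Cl10 against Cl1, DSG1 ran from -0.069 to 0.025 without a Cl10 library and was 0.049 with library size alone, and DSG3 ran from -0.0082 to 0.23 without a Cl1 library. Relative to the 50 nearest genes the sign turned in Cl10 for EVPL (0.38), JUP (-0.092) and CTNND1 (-0.19), and in Cl10 against Cl1 for DSC3 (-0.026) and PKP2 (-0.013). Beyond the change in samples, genes or scaling, the cause was not tested. Subtracting the exon length trend turned no sign.

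Across genes, the differences between replicate 1 and replicate 2 correlated at -0.07 between the control and Cl1, -0.02 between the control and Cl10, and 0.01 between the clones. Whether libraries with the same number were handled together cannot be told from these values. With the replicate block, Cl1 had 4 higher and 1 lower genes (PKP3 lost its call, adjusted p = 0.0917 from edgeR), Cl10 had 1 and 2, and Cl10 against Cl1 had 1 and 6, and all genes passing numbered 4841, 8681 and 9894. Depth limited DSC1, DSG4 and ZEB1, with at most 23, 84 and 159 counts.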
